A study of Mus musculus with 21 samples.

Results

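The aryl hydrocarbon receptor Ahr, its partner Arnt and 4 genes that the receptor switches on, Ahrr, Tiparp, Cyp1a1 and Cyp1b1, were followed in the cecum of mice fed broccoli powder. They are the rows of these symbols in the table of raw counts, whose Ensembl identifiers were named with GENCODE mouse release 21, and they make 6 of its 25361 genes. The study fed 3-week-old C57BL/6 mice, an inbred laboratory strain, a Total Western Diet for 6 weeks and then the same diet with broccoli powder mixed in for 3 more weeks. The powder made up 0% (6 libraries), 0.5% (5), 1.0% (5) or 2.5% (5) of the diet. Each library held messenger RNA from 1 cecum, and the mice at 0% had the same Western diet as all others. The labels carry an animal number for each library, so libraries were taken as separate mice.

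The aryl hydrocarbon receptor is a transcription factor that waits in the cytosol, bound to chaperones, until a small planar ligand enters the cell. It then moves to the nucleus, pairs with Arnt and binds a short DNA element with the core GCGTG, which turns on the xenobiotic enzymes Cyp1a1 and Cyp1b1 and the feedback inhibitors Ahrr and Tiparp. In the gut, ligands come from bacterial tryptophan metabolism and from cruciferous vegetables such as broccoli, whose glucosinolate glucobrassicin breaks down to indoles, and the receptor is known there for its role in epithelial cells, innate lymphoid cells and intraepithelial lymphocytes.

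The libraries held 28514263 to 58594569 counts, and all 6 genes passed the filter on low counts, as did 15652 genes in all. Counts per library were 1973 to 3777 for Arnt, 1066 to 2208 for Tiparp, 624 to 1270 for Ahr, 36 to 227 for Ahrr, 18 to 171 for Cyp1b1 and 8 to 274 for Cyp1a1. Levels below are CPM, the share of a library's counts that a gene takes on a common scale set by trimmed mean of M values (TMM). Summed markers of large intestine epithelium stood at 5600 to 9074 CPM in every library, with 1 of the 6 markers, Scnn1b, at a median under 0.1 CPM. Small intestine markers (Fabp6, apolipoproteins, Paneth cell defensins and brush border enzymes) set 6 libraries apart, with a mean log2 CPM of 0.37 to 3.92 over the list, against -1.91 to -0.83 in the other 15. These 6 were 0.5% replicates 1 and 4, 1.0% replicate 1, 2.5% replicates 1 and 2 and 0% replicate 5. A planned rule with a wider gap took 5 of them and left 2.5% replicate 2 just outside, at 0.37, with the nearest library inside at 0.67. Results that rest on these libraries are given with and without them.

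Compared per kilobase of exon, the receptor and its partner stood well above the classical target enzymes. The median over the 21 libraries was 8.47 CPM per kb for Arnt (range 7.47 to 9.48), 8.39 for Tiparp (6.39 to 12.6) and 3.75 for Ahr (3.10 to 4.66). It was 0.443 CPM per kb for Cyp1a1 (0.0628 to 2.28), 0.338 for Ahrr (0.126 to 0.620) and 0.172 for Cyp1b1 (0.0846 to 0.677). The ranges of Arnt and Tiparp overlapped, as did those of the 3 lowest genes, while Ahr lay below the first pair and above the last 3 in every library. Cyp1a1 was the most variable, its highest library 36.3 times its lowest, whereas the same ratio was 1.27 for Arnt, 1.504 for Ahr and 1.98 for Tiparp. It was 4.92 for Ahrr and 7.997 for Cyp1b1.

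**Figure D1:**
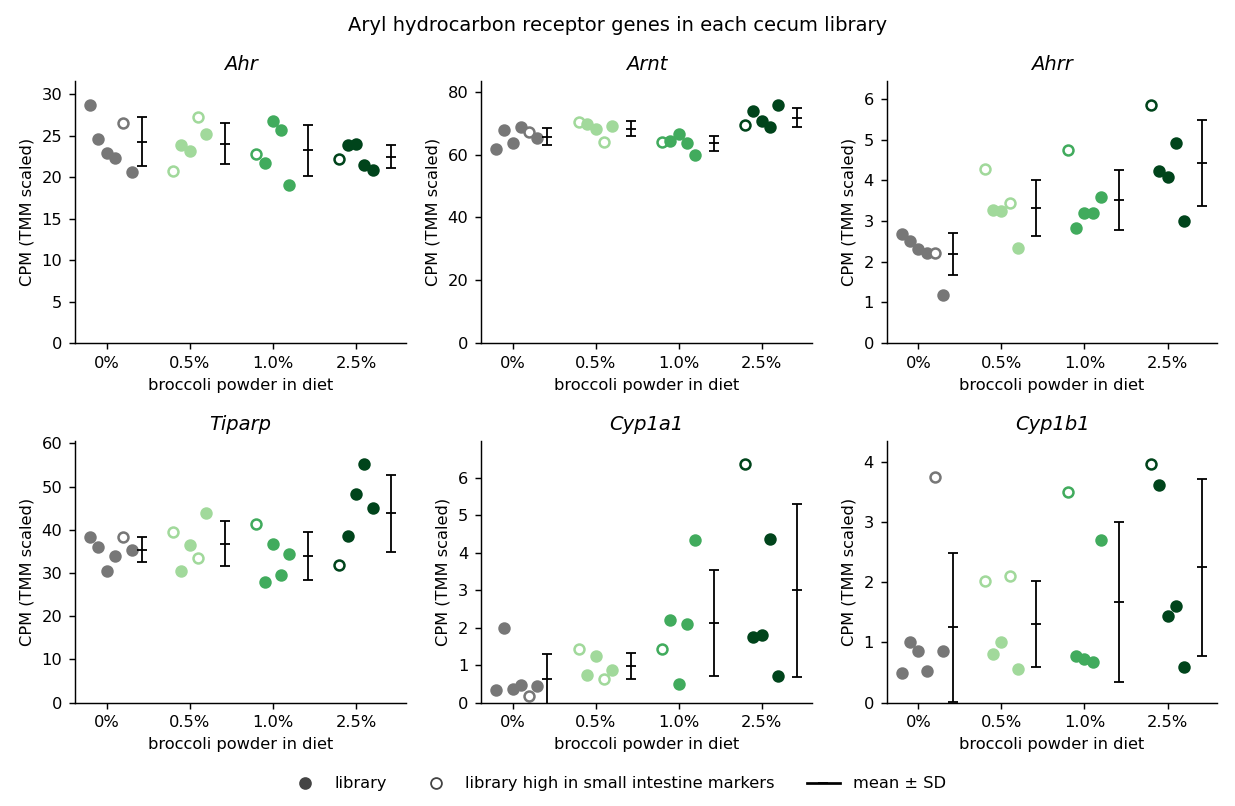
Level of each of the 6 genes in CPM (vertical axis from 0) in the cecum libraries of the 4 diets, 1 point per library, with the mean and SD of the diet beside it. Open points mark the 5 libraries over the wider gap in small intestine markers. All 5 points of Ahrr at 2.5% lie above the 6 at 0%, while the points of Ahr overlap between all diets. The lower arm of the SD of Cyp1a1 at 0% ends at the axis.

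Broccoli powder was tested first at its highest dose, 2.5% against 0%. Of the 6 genes Ahrr was the 1 called, and it rose to 2.02 times its mean at 0%. The other 3 targets had higher means at 2.5%, Cyp1a1 by the widest fold, but their differences did not pass the test over all genes. Arnt was slightly higher and Ahr slightly lower, and neither passed. By edgeR's quasi-likelihood test with Benjamini-Hochberg adjustment, 17 of the 15652 genes tested were called at an adjusted p under 0.05, which is 0.109%. Unadjusted, 4 of the 6 genes had a p under 0.05, against 8.43% of all genes. The median log2 change of the 6 was 0.57, against -0.01 over all genes. The 6 were chosen with earlier results of these data known, so such shares and medians, here and below, are descriptions and not a test of the set. In bulk tissue, a change in the number of cells that carry a transcript and a change in its amount per cell cannot be told apart.

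**Figure D2:**
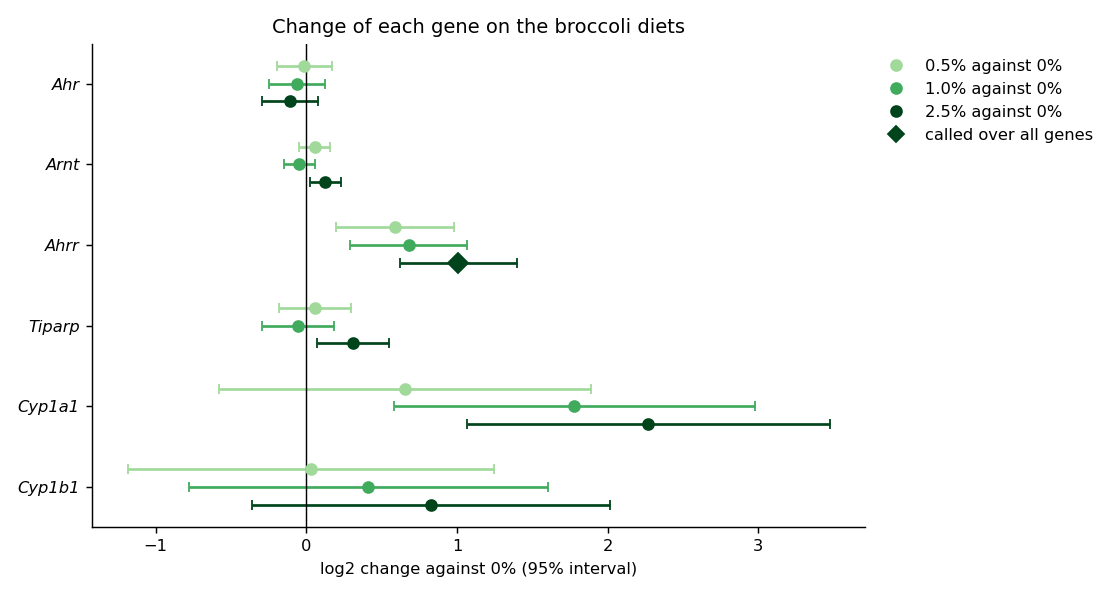
Log2 change of each gene at 0.5%, 1.0% and 2.5% powder against 0% (horizontal axis), with its approximate 95% interval. The diamond is the 1 change called over all genes tested, Ahrr at 2.5%, and the widest intervals are those of Cyp1a1 and Cyp1b1.

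Ahr encodes the receptor itself (chromosome 12, 35497974 to 35535038, minus strand, GRCm38). Its level was 22.2, 23.9, 24.0, 21.5 and 20.9 CPM in replicates 1 to 5 at 2.5%, against a lowest of 20.6, a median of 23.7 and a highest of 28.7 CPM at 0%. The 2.5% libraries all lay within the span of the controls. The group means were 22.5 ± 1.41 CPM at 2.5% (SD, n = 5) and 24.3 ± 2.95 CPM at 0% (SD, n = 6). The log2 change was -0.11 ± 0.09 (SE), and its 95% interval of -0.30 to 0.08 held the value 0 (edgeR adjusted p = 0.765). Exons of Ahr overlap a long noncoding RNA on the opposite strand that the table does not list, and whether counting used the strand is not given in the sources used here.

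Arnt encodes the partner that the receptor needs to bind DNA, which it shares with the hypoxia-inducible factors (chromosome 3, 95434388 to 95497240, plus strand). It stood at 69.5, 74.0, 70.6, 68.9 and 75.9 CPM at 2.5%, and at 61.9 to 68.7 CPM at 0% with a median of 66.2. Every 2.5% library was above every control, though the nearest values, 68.9 and 68.7 CPM, were almost equal. The means differed by a ratio of 1.09, with 71.8 ± 3.00 CPM at 2.5% and 65.8 ± 2.60 CPM at 0%. The log2 change of 0.13 ± 0.05 had an unadjusted p of 0.0219 and did not pass over all genes in edgeR's quasi-likelihood test (adjusted p = 0.507).

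Ahrr encodes the aryl hydrocarbon receptor repressor, which lacks the ligand-driven activation domain of the receptor, competes with it for Arnt and is itself a target of the receptor (chromosome 13, 74211118 to 74292331, minus strand). Its level was 5.86, 4.23, 4.08, 4.93 and 3.01 CPM in the 5 libraries at 2.5%, against a lowest of 1.19, a median of 2.26 and a highest of 2.69 CPM at 0%. The groups did not overlap, and the lowest 2.5% library, replicate 5, lay close above the highest control. The means were 4.42 ± 1.06 CPM at 2.5% and 2.19 ± 0.524 CPM at 0%, a ratio of 2.02. The log2 change was 1.01 ± 0.20 with a 95% interval of 0.62 to 1.398 (unadjusted p = 3.26e-05, adjusted p = 0.0444, edgeR quasi-likelihood test). The adjusted p lies just under the threshold and the call was lost under 7 of the 11 other settings and without any 1 of 17 of the 21 libraries, while the log2 change stayed between 0.87 and 1.12. Its median was 4.25 CPM in the 6 libraries rich in small intestine markers, against 3.01 CPM in the other 15, and the highest library on each broccoli diet was 1 of the 6. Only 1 of the 6 was a control, with Ahrr at 2.21 CPM, against a median of 2.31 CPM in the other 5 controls. The difference between the pooled medians thus also holds the difference between diets. Without the 5 over the wider gap the log2 change of Ahrr was 0.89 (adjusted p = 0.0762), and without the 6 it was 0.87 (adjusted p = 0.0869). In a fit that kept all 21 libraries and took the mean of the small intestine markers as a covariate, the call of Ahrr held. Set against the receptor per kilobase, Ahrr stood at 0.129 ± 0.0318 of Ahr at 2.5% and at 0.0584 ± 0.0111 at 0%.

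Ahrr and Cyp1a1, whose means at 2.5% had the largest ratios to 0%, are shown by the 250 bases before their transcription start, from RefSeq on GRCm38.p6, read 5′ to 3′ on the strand of the gene. Capitals mark each match to the receptor's core GCGTG (searched on both strands, where the other strand reads CACGC).
Ahrr, chr13:74292332-74292581, minus strand: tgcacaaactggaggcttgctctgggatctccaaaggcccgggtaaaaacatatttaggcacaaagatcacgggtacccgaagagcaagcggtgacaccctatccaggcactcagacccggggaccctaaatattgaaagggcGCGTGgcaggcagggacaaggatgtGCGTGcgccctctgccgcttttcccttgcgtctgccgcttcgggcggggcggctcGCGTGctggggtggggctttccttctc
Cyp1a1, chr9:57697363-57697612, plus strand: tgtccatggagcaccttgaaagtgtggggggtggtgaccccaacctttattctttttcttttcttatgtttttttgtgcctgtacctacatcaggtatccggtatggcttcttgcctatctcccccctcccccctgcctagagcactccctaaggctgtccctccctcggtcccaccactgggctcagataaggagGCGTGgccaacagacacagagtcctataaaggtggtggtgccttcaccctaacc
Promoters of 250 bases before and 50 after the start were found for Ahrr, Arnt, Cyp1a1, Cyp1b1 and Tiparp, 5 of the 6 genes. Ahrr held 3 matches to GCGTG, whose first bases lie 107, 82 and 27 bases before the start, and the last of them is also a match to the longer TNGCGTG. Cyp1a1 held 1 match, 54 bases before the start, and Arnt, Cyp1b1 and Tiparp held 1 each. Of all 32851 promoters in the same table, 32.4% held at least 1 match to GCGTG and 3.91% held 3 or more, and 5.07% held TNGCGTG. A match to these letters is a description of the sequence and does not show that the receptor binds there. The enhancer cluster through which the receptor is known to act on Cyp1a1 lies further upstream than this window.

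**Figure D3:**
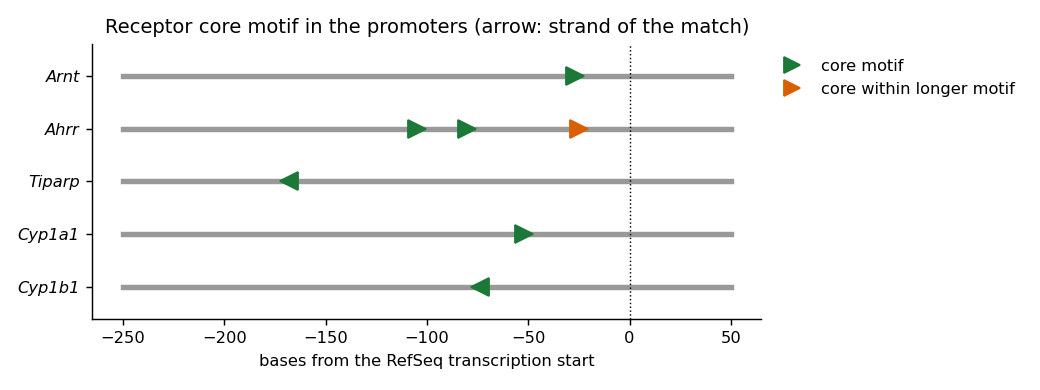
Position of each match to the core motif in the promoters of 5 of the genes (horizontal axis, bases from the RefSeq transcription start, from 250 before to 50 after). Arrows point along the strand of the match, and the differently coloured arrow is the match within the longer motif. Ahrr has 3 matches and the other 4 genes have 1 each.

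Tiparp encodes a mono-ADP-ribosyltransferase, also called PARP7, that modifies the receptor and damps its activity (chromosome 3, 65528410 to 65555518, plus strand). It stood at 31.9, 38.5, 48.4, 55.1 and 44.95 CPM at 2.5%, and at 30.5 to 38.4 CPM with a median of 35.6 at 0%. Replicates 3, 4 and 5 were well above all controls, replicate 2 was just above them and replicate 1 lay among them. The means were 43.8 ± 8.95 CPM at 2.5% and 35.4 ± 2.95 CPM at 0%, and the log2 change of 0.31 ± 0.12 missed the threshold (edgeR unadjusted p = 0.0186, adjusted p = 0.490). Immediate early response genes (12 in the list) moved with it: their summed level was 2709, 3193, 4532, 5568 and 4715 CPM in 2.5% replicates 1 to 5, against 2860 to 3370 CPM at 0%. Of these 12 genes 10 had a positive log2 change, 6 an unadjusted p under 0.05 and 0 an adjusted one, by edgeR. Replicates 3, 4 and 5 were thus highest in both, and the part of this response in the level of Tiparp was not tested beyond the next fit. With the mean of the immediate early list as a covariate the log2 change of Tiparp was 0.13 (adjusted p = 0.762), and with the 6 libraries rich in small intestine markers left out it was 0.51 (adjusted p = 0.0454), a fit that keeps only replicates 3, 4 and 5 at 2.5% and that called 121 genes in all. Exons of Tiparp overlap a pseudogene on the opposite strand that the table does not list.

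Cyp1a1 encodes the cytochrome P450 that serves as the classical readout of receptor activity and that breaks down many receptor ligands (chromosome 9, 57687928 to 57703824, plus strand). It stood at 6.35, 1.74, 1.80, 4.37 and 0.705 CPM at 2.5%, against a lowest of 0.175, a median of 0.392 and a highest of 1.98 CPM at 0%. The groups overlapped through 1 control, replicate 2 at 1.98 CPM, while the other 5 controls lay at 0.478 CPM or lower and below every 2.5% library. The means were 2.99 ± 2.32 CPM at 2.5% and 0.625 ± 0.674 CPM at 0%, a ratio of 4.79. The log2 change was 2.27 ± 0.61 with a 95% interval of 1.06 to 3.47, and it did not pass over all genes (edgeR unadjusted p = 0.00151, adjusted p = 0.231). Without 0% replicate 2 the log2 change was 3.08 (adjusted p = 0.0529), and by DESeq2 on all libraries it was 2.26 (adjusted p = 0.0491). Its highest library, 2.5% replicate 1, was rich in small intestine markers, and the log2 change was 1.59 (adjusted p = 0.311) without the 5 such libraries over the wider gap and 1.68 (adjusted p = 0.302) without the 6, in edgeR.

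Cyp1b1 encodes a related cytochrome P450 that is expressed mostly outside the liver and is also induced by the receptor (chromosome 17, 79701537 to 79715061, minus strand). It stood at 3.95, 3.62, 1.44, 1.60 and 0.597 CPM at 2.5%, against a lowest of 0.494, a median of 0.854 and a highest of 3.74 CPM at 0%. The groups overlapped mainly through 1 control, replicate 5, which was higher than all but 1 of the 2.5% libraries. The other 5 controls lay at 1.01 CPM or lower. Replicates 1 to 4 at 2.5% were above these 5, and replicate 5 at 2.5% lay among them. The means were 2.24 ± 1.46 CPM at 2.5% and 1.25 ± 1.24 CPM at 0%, and the log2 change of 0.83 ± 0.61, with a 95% interval of -0.36 to 2.02, did not pass (edgeR adjusted p = 0.726). Cyp1b1 ran with the small intestine markers: it was 2.02 to 3.95 CPM (median 3.56) in the 6 libraries high in them, against 0.494 to 2.69 CPM (median 0.808) in the other 15. These 6 libraries hold 6 of the 7 highest values of Cyp1b1. The 10 markers summed to 60.4 to 117 CPM at 2.5% and 40.8 to 529 CPM at 0%, with Apoc3 and the 3 defensins, 4 of the 10, at a median under 0.1 CPM on every diet. The log2 change of Cyp1b1 was 1.58 without 0% replicate 5 (adjusted p = 0.448) in edgeR. It was 1.28 without the 5 libraries over the wider gap (adjusted p = 0.267), 0.70 without the 6 (adjusted p = 0.518) and 1.00 with the mean of the markers as a covariate (adjusted p = 0.275). The part of small intestine transcripts in the level of Cyp1b1 was not tested further.

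At 1.0% against 0%, no gene of the 6 was called, nor was any other (0% of the genes tested, edgeR quasi-likelihood test). DESeq2 and limma voom also called 0, while 498 genes, or 3.18%, had an unadjusted p under 0.05. Ahrr and Cyp1a1 were the members among them. Ahrr stood at 4.75, 2.84, 3.19, 3.19 and 3.60 CPM at 1.0%, all above the highest control at 2.69 CPM. Its mean of 3.51 ± 0.743 CPM at 1.0%, against 2.19 ± 0.524 CPM at 0%, gave a log2 change of 0.68 ± 0.20 (edgeR unadjusted p = 0.00220, adjusted p = 0.999). Cyp1a1 stood at 1.43, 2.21, 0.507, 2.09 and 4.34 CPM at 1.0%, again overlapping the controls through their replicate 2 alone. The log2 change was 1.78 ± 0.61 with means of 2.11 ± 1.42 CPM at 1.0% and 0.625 ± 0.674 CPM at 0% (edgeR unadjusted p = 0.00885, adjusted p = 0.999). The log2 changes of the remaining 4 were -0.07 ± 0.09 for Ahr, -0.05 ± 0.05 for Arnt, -0.06 ± 0.12 for Tiparp and 0.41 ± 0.61 for Cyp1b1.

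At 0.5% against 0%, edgeR called 1 gene of all tested (0.00639%) and DESeq2 called 2, with none of the 6 among them. Ahrr stood at 4.28, 3.26, 3.25, 3.43 and 2.34 CPM at 0.5%, so that 4 of the 5 libraries lay above every control and replicate 5 lay among them. Its log2 change was 0.59 ± 0.20, with 3.31 ± 0.688 CPM at 0.5% and 2.19 ± 0.524 CPM at 0% (edgeR unadjusted p = 0.00677, adjusted p = 0.675). Cyp1a1 stood at 1.43, 0.735, 1.23, 0.626 and 0.874 CPM at 0.5%, above 5 of the 6 controls in every library and below the sixth. Its log2 change of 0.66 ± 0.63, with means of 0.979 ± 0.339 CPM at 0.5% and 0.625 ± 0.674 CPM at 0%, did not pass (edgeR adjusted p = 0.825). Changes of the others were -0.01 ± 0.09 for Ahr, 0.05 ± 0.05 for Arnt, 0.05 ± 0.12 for Tiparp and 0.03 ± 0.62 for Cyp1b1 on the log2 scale. Their signs at this dose turned with the setting: Arnt, Tiparp and Cyp1b1 had -0.03, -0.03 and -0.08 with library totals in place of TMM, and Ahr had 0.01 with the libraries rich in small intestine markers left out.

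Set side by side, the means of Ahrr were 2.19 CPM at 0%, 3.31 at 0.5%, 3.51 at 1.0% and 4.42 at 2.5%, and those of Cyp1a1 were 0.625, 0.979, 2.11 and 2.99 CPM in the same order of doses. The means of both went up at each step, whereas those of Tiparp (35.4, 36.8, 34.0 and 43.8 CPM) and Arnt (65.8, 68.3, 63.7 and 71.8 CPM) were lowest at 1.0% and highest at 2.5%. Medians did not rise at each step: that of Cyp1a1 was 2.09 CPM at 1.0% and 1.80 CPM at 2.5%. For Ahrr the median was 3.26 CPM at 0.5% and 3.19 CPM at 1.0%. The means of Ahr went down in small steps and were 24.3, 24.1, 23.2 and 22.5 CPM from 0% to 2.5%. All doses share the 6 control libraries, so the 3 comparisons with 0% are not independent of each other. Complete separation above the controls was rare among all genes: 0.23% at 0.5%, 0.134% at 1.0% and 0.454% at 2.5% had every library above every control. Of the 6 genes, 0 met this at 0.5%, Ahrr met it at 1.0%, and Ahrr and Arnt met it at 2.5%. Taking the 15 broccoli libraries together, 14 lay above every control for Ahrr, 8 for Arnt, 7 for Tiparp, 5 for Cyp1a1, 1 for Cyp1b1 and 0 for Ahr. Only 4 of all genes tested (0.0256%) had 14 or more, a limit chosen after the values of Ahrr were seen.

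A linear trend over the 4 doses was then fitted, as a log2 slope per 1% of powder. By edgeR's quasi-likelihood test 23 genes were called, or 0.147%, and 0 of the 6 were among them, though 4 had an unadjusted p under 0.05, against 7.32% of all genes. The slope of Ahrr was 0.35 ± 0.08 (adjusted p = 0.0840; 0.00753 by DESeq2) and that of Cyp1a1 was 0.87 ± 0.24 (adjusted p = 0.268). Slopes were 0.12 ± 0.05 for Tiparp, 0.05 ± 0.02 for Arnt, 0.35 ± 0.22 for Cyp1b1 and -0.05 ± 0.04 for Ahr. The slope of Ahr was the 1 that was negative.

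The broccoli diets were also set against each other. At 2.5% against 0.5%, 0 of the 6 genes and 0% of all genes were called by edgeR's quasi-likelihood test, with 1 of the 6 and 4.41% of all genes at an unadjusted p under 0.05. That gene was Cyp1a1, with a log2 difference of 1.61 ± 0.63 (unadjusted p = 0.0185, edgeR) and an interval of 0.38 to 2.84. Ahrr differed by 0.42 ± 0.21, with 4.42 ± 1.06 CPM at 2.5% and 3.31 ± 0.688 CPM at 0.5%. At 2.5% against 1.0%, 0 of the 6 and 0% of all genes were called, with 2 of the 6 and 5.90% of all genes at an unadjusted p under 0.05. These were Tiparp, which differed by 0.37 ± 0.13 (adjusted p = 0.645), and Arnt, which differed by 0.17 ± 0.05 (edgeR adjusted p = 0.562), with 71.8 ± 3.00 CPM at 2.5% and 63.7 ± 2.42 CPM at 1.0%. With the 6 libraries rich in small intestine markers left out Tiparp was called in this comparison, at 0.62 (adjusted p = 0.0154), as 1 of 103 genes in that fit. Ahrr and Cyp1a1 differed by 0.33 ± 0.20 and 0.49 ± 0.60 between 2.5% and 1.0%, and the interval of Cyp1a1 of -0.68 to 1.66 leaves both directions possible. The difference of Cyp1a1 was -0.10 without the 5 libraries over the wider gap and -0.01 without the 6. DESeq2 called 18 genes at 2.5% against 0.5% and 25 at 2.5% against 1.0%, with 0 of the 6 among them in both.

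Genes that surround the receptor in its pathway were taken as lists, and 0 of their members were called in any of the 6 comparisons by edgeR. At 2.5% against 0% an unadjusted p under 0.05 was reached by 3 of the 42 tested, Nqo1, Ido1 and Ep300, which is 7.14%, against 8.43% of all genes. Among the cytosolic chaperones that hold the unbound receptor, the co-chaperone Ptges3, also called p23, stood at 135 ± 7.01 CPM at 2.5% and 126 ± 16.8 CPM at 0%, a log2 change of 0.11 ± 0.08. The HSP90 genes Hsp90aa1 and Hsp90ab1 had log2 changes of 0.02 ± 0.14 and -0.02 ± 0.11. Of 8 other genes of the receptor's battery 4 passed the filter, and all 4 were positive, with a median log2 change of 0.22. Nqo1, a quinone reductase driven by both the receptor and NRF2, stood at 66.2 ± 10.7 CPM at 2.5% and 54.9 ± 8.11 CPM at 0%, a log2 change of 0.27 ± 0.11 (adjusted p = 0.496). Nfe2l2, which encodes NRF2, stood at 447 ± 13.7 CPM at 2.5% and 406 ± 38.8 CPM at 0% (0.14 ± 0.08, adjusted p = 0.635). Cyp1a2, the liver member of the family, was listed at 0 counts in all 21 libraries. So were Ugt1a6a and Ugt1a6b, whose exons are shared within the Ugt1a locus so that their counts are uncertain, and Aldh3a1 had 43 counts in all.

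Enzymes of tryptophan breakdown, mostly of the kynurenine route and not all of them makers of receptor ligands, were positive for 5 of the 7 tested (8 listed), with 0 called. Ido1, the indoleamine dioxygenase that opens this route outside the liver, had the lowest p of the list, with a log2 change of 0.83 ± 0.24 (adjusted p = 0.247, edgeR). Its level was 10.2 ± 3.57 CPM at 2.5% and 5.76 ± 1.67 CPM at 0%. Tdo2, the liver form of the same step, stood at 2.01 ± 0.543 CPM at 2.5% and 1.62 ± 0.397 CPM at 0% (0.31 ± 0.22). All 5 coactivators of the receptor were positive with a median of 0.03, with the lowest p for the acetyltransferase Ep300 at 0.21 ± 0.06 (adjusted p = 0.266) and then for Ncoa2 at 0.11 ± 0.06. Other factors of the same bHLH-PAS family, which could compete for Arnt or share its DNA elements, were positive for 4 of 11 tested. The clock factor Clock changed by 0.09 ± 0.06 and Arntl2 by -0.21 ± 0.15. Targets of the hypoxia-inducible factors, which also use Arnt, were positive for 4 of 11, with the kinase Pdk1 at -0.13 ± 0.07 and the prolyl hydroxylase Egln3 at -0.25 ± 0.16.

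Between mice on 1 diet the 6 genes moved together only loosely. After each diet's mean was removed from log2 CPM, the 15 pairs were correlated over the 21 libraries and none passed (100000 permutations, two-sided, Benjamini-Hochberg over the 15 pairs). The highest was Ahrr with Cyp1b1, at r = 0.510 (p = 0.0177, adjusted p = 0.265, permutation) and rho = 0.543 (adjusted p = 0.130). Without the 2 libraries farthest from the median of Ahrr r was 0.515, and in the 16 libraries under the wider gap in small intestine markers it was 0.295. In the same 16 libraries, which still include 2.5% replicate 2, the highest pair was Cyp1a1 with Cyp1b1, at 0.528, against 0.229 over all 21. Ahrr with Cyp1a1 had r = 0.376 (permutation adjusted p = 0.460) and rho = 0.303. Ahr with Cyp1a1 had r = -0.407 (permutation adjusted p = 0.460) and rho = -0.519 (adjusted p = 0.130). All these permutations shuffled libraries across diets and took no account of the diet means removed, so their p-values are somewhat too small.

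The same was done for each gene with the mean of 6 marker lists (epithelium, stroma, endothelium, smooth muscle, lymphoid cells and immediate early genes), 36 relations in all. Tiparp gave the 2 that passed on Pearson's r. The same limit on the p-values holds here, and shuffling within diets was not done, so both passes are uncertain. With the epithelial markers r was 0.666 (permutation adjusted p = 0.0353) and rho 0.647 (adjusted p = 0.0655), and r was 0.612 without the 2 farthest libraries. With the immediate early genes r was 0.632 (permutation adjusted p = 0.0371) and rho 0.499 (adjusted p = 0.409), and without the 2 farthest libraries r was 0.400, so this relation rests largely on them. In the 16 libraries under the wider gap in small intestine markers r with the immediate early genes was 0.615. Small intestine markers were left out here because their libraries fall into separate clusters. Markers of group 3 innate lymphoid cells and intraepithelial lymphocytes, cells that need the receptor, summed to 40.7 to 55.6 CPM at 2.5% and 44.8 to 56.2 CPM at 0%. Il22, the cytokine that the receptor drives in innate lymphoid cells, had 15 counts in all libraries.

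**Figure D4:**
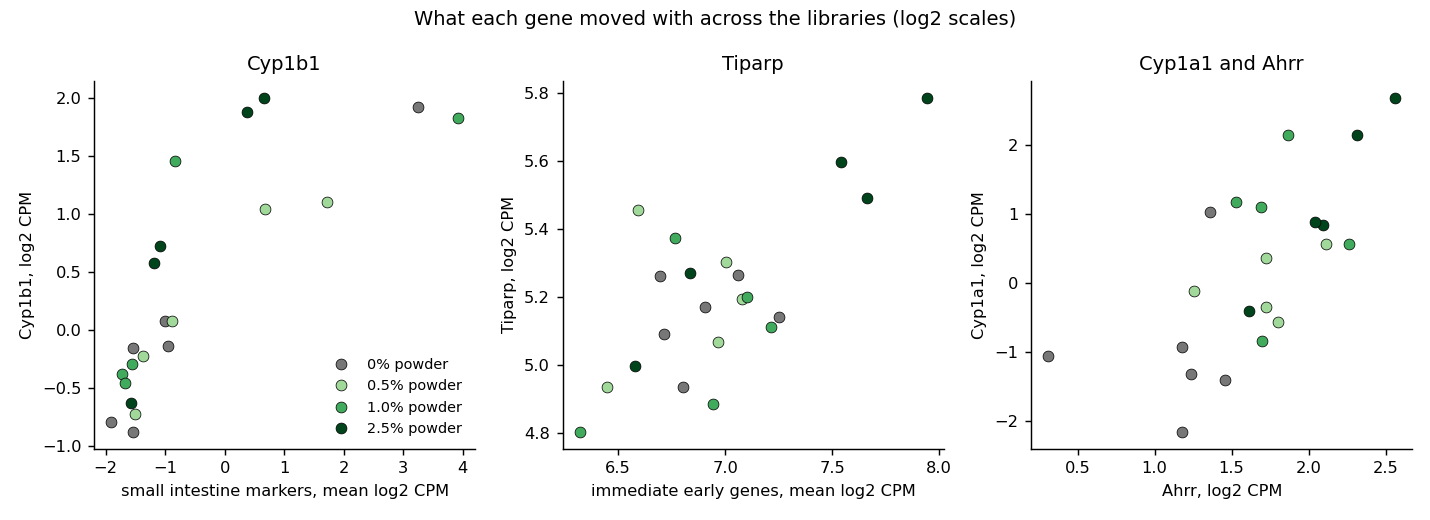
Left, Cyp1b1 against the mean of the small intestine markers; middle, Tiparp against the mean of the immediate early genes; right, Cyp1a1 against Ahrr, all in log2 CPM with 1 point per library coloured by diet. The 6 libraries to the right in the first panel hold 6 of the 7 highest values of Cyp1b1, and 3 libraries at 2.5% stand at the upper right in the middle panel.

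The genes most like each target over the 21 libraries differed between targets. These are descriptions, ranked by Pearson's r of log2 CPM among 13153 protein-coding genes that averaged 1 CPM or more, and all points share their libraries and scaling. Diet means were not removed, so differences between diets are part of these values. With diet means removed, Ahrr with Cyp1a1 was at 0.376. The genes named below for Ahrr were then at 0.423 (Rnaseh2b) to 0.729 (Retreg1), with Slc6a6 at 0.511. Those for Cyp1a1 were at 0.468 (Zkscan5) to 0.655 (Hsd17b4), and those for Tiparp at 0.812 (Ccng2) to 0.852 (Rap2b). All of these were lower than with diet means kept, whereas those for Cyp1b1 were higher, at 0.883 (Npc1l1) to 0.914 (Fabp6). With diet means kept, the genes most like Ahrr were Retreg1 (r = 0.777), the taurine transporter Slc6a6 (0.761), the endocrine granule protein Chgb (0.738), Rnaseh2b (0.734) and Cobl (0.721), and Cyp1a1 ranked at 11 with r = 0.687. For Cyp1a1 they were Ralgapa2 (0.732), the carboxylesterase Ces1f (0.707), the peroxisomal enzyme Hsd17b4 (0.702), Lnx1 (0.695) and Zkscan5 (0.692), and Ahrr came next at rank 6. For Cyp1b1 they were the ileal bile acid binding protein Fabp6 (0.878), the antimicrobial lectin Reg3g (0.864), Clca4b (0.851), the cholesterol transporter Npc1l1 (0.838) and the sterol exporter subunit Abcg8 (0.837). In the 16 libraries under the wider gap these values were 0.798, 0.723, 0.762, 0.685 and 0.726. These 16 still include 2.5% replicate 2, 1 of the 6 libraries set apart by small intestine markers, with Cyp1b1 at 3.62 CPM. Fabp6 is 1 of the markers that define the small intestine list. For Tiparp they were Trib1 (0.891), Rap2b (0.887), Tsc22d2 (0.879), Klf6 (0.871) and Ccng2 (0.870), of which Klf6 is itself in the immediate early list. For the 4 targets, Ahr and Arnt ranked at 1014 or lower.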

How the data were processed

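The values the authors deposited are raw counts, 1 table for the 21 cecum libraries, made with a strand-marking mRNA kit per the labels' protocols, and the submitters' processing notes name the build mm10. For the aligner, counter, annotation and strand setting, nothing is given in the sources used. All values were whole numbers, and 0 columns lacked a sample. Names came from GENCODE mouse release 21, which held 25268 of the 25361 identifiers.

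Groups are the diets in the labels. Counts were fitted with edgeR 4.0.16 in R 4.3.3 (filterByExpr by diet, TMM, robust quasi-likelihood, 1 fit over all 21 libraries, adjusted p under 0.05). The approach was tested on simulated counts, where every gene given a change averaged more CPM than Ahrr, Cyp1a1 or Cyp1b1. How well it finds changes at the levels of those genes was thus not tested. DESeq2 1.42.0 and limma voom 3.58.1, library totals, no filter, fits to the compared diets only or without single libraries, animals numbered above 70 or libraries high in small intestine markers, and marker covariates were alternatives. Libraries of 1 diet differed by a chi-square of at least 17.1 per degree of freedom, so none was a duplicate. P-values measure the spread between these mice, and no cage is named. Each SE of a log2 change was derived from the F statistic, and the 95% intervals use a normal multiple of it. These intervals are therefore approximate and somewhat narrower than the test itself implies. Apart from 3 animals above 70, animal numbers follow each other diet by diet, so housing or handling that went with the numbers and diet cannot be told apart. The log2 CPM used for correlations adds a prior count of 2.

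The 6 genes and the lists were chosen with earlier results of these data known. All 6 are named in every comparison, and from each pathway list those called or else the 2 with the lowest p at 2.5% against 0%, plus the 5 genes most like each target. One gene that this rule names is not reported here, and the HSP90 genes, Ugt1a6, Aldh3a1, Cyp1a2 and Il22 were named after their values were seen. Promoters came from a RefSeq table.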

Additional observations from a re-analysis of the deposited data

Results flagged for a closer look

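In 24 groups of 5 or 6 libraries (6 genes on 4 diets), 3 libraries stood apart from the rest of their diet by Dixon's test at its 95% level, where chance flags about 1 in 20 groups. All 3 were controls at 0%, each for another gene. Cyp1a1 was 1.98 CPM in replicate 2, the highest control, with a gap to the next of 0.833 of the range. Cyp1b1 was 3.74 CPM in replicate 5, with a gap of 0.842, and that library was also the control highest in small intestine markers. Ahrr was 1.19 CPM in replicate 6, the lowest control, with a gap of 0.679. Without these libraries the log2 change at 2.5% against 0% was 3.08 for Cyp1a1 (edgeR adjusted p = 0.0529), 1.58 for Cyp1b1 (adjusted p = 0.448) and 0.89 for Ahrr (adjusted p = 0.0795).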

How the results depend on the processing

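At 2.5% against 0%, 1 of the 6 genes was called. The count was 0 with library totals, limma voom, only the groups compared, animals numbered above 70 left out, the 5 libraries high in small intestine markers left out, or an immediate early covariate, it was 2 with DESeq2 (Ahrr and Cyp1a1), and it ran from 0 to 1 with single libraries left out. Ahrr had adjusted p-values of 0.0701, 0.0907, 0.252, 0.103, 0.0762 and 0.153 in the settings that gave 0, and 0.000790 with DESeq2. With single libraries left out Ahrr ran from 0.89 to 1.12 (adjusted p 0.0300 to 0.195), and the call held without 0% replicate 1, 0.5% replicate 1, 1.0% replicate 1 or 2.5% replicate 2 and was lost without any other. With the 6 libraries rich in small intestine markers left out, a choice made after seeing the data, Ahrr was at 0.87 (adjusted p = 0.0869). The call of Ahrr held with all libraries and a small intestine covariate. Members called were 1 at 2.5% against 1.0% without those 6 (Tiparp, among 103 genes called, against 0 with all libraries, 25 with DESeq2 and 21 without the 5) and 1 in the slope with DESeq2 (Ahrr). At 2.5% against 0.5%, genes called were 0, against 18 with DESeq2 and 44 without the 6. Cyp1a1 at 2.5% ran from 1.79 to 3.08 (1.59 without the 5, 1.68 without the 6) and Cyp1b1 from 0.52 to 1.58 with single libraries left out.

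Signs turned only for values that did not pass. At 0.5%, library totals gave Arnt -0.0346, Cyp1b1 -0.0826 and Tiparp -0.0343, and leaving out the 5 or the 6 gave Ahr 0.0138 and 0.0139. At 2.5% against 1.0%, Cyp1a1 was -0.101 without the 5 and -0.0126 without the 6, and Cyp1b1 was -0.0266 without the 6. With library totals the correlations of Ahr with Arnt (0.151) and Cyp1b1 (0.0191) and of Cyp1b1 with Arnt (0.0392) and Tiparp (0.0502) turned positive. With single libraries left out, changes at 0.5% ran from -0.0623 to 0.0392 for Ahr, -0.222 to 0.783 for Cyp1b1 and -0.0174 to 0.112 for Tiparp. At 1.0% they ran from -0.0296 to 1.17 for Cyp1b1 and -0.139 to 0.00536 for Tiparp, and Ahr ran from -0.109 to 0.0109 at 2.5% against 1.0%. The causes were not tested. Genes called at 2.5% against 0% were 17, against 7 with library totals or voom, 84 with DESeq2, 0 with only the groups compared or the immediate early covariate, 5 without animals above 70, 33 without the 5, 121 without the 6 and 0 to 56 with single libraries left out. For the slope they were 23, against 60 with DESeq2, 9 with voom, 15 with a small intestine covariate, 13 without animals above 70, 101 without the 6, 0 with the immediate early covariate or with dose as a rank and 0 to 56 with single libraries left out. No paired analysis was possible because replicate numbers follow accession order and the labels pair no animals across diets. Cyp1a1 had as few as 8 counts in a library and Cyp1b1 18, so counting error adds to their spread.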
